A study of Mus musculus with 4 samples.

Results

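Gata3, Maf, Nfil3, Bhlhe40 and Epas1 encode transcription factors of T helper 2 (Th2) cells, the T cells that drive allergic inflammation. Their regions were taken from 6 lists of differentially accessible chromatin, each comparing a pair of sorted T helper populations of mice treated with house dust mite. A listed region belonged to a gene when its midpoint lay inside it, or when it lay outside all genes and the nearest gene end, within 100 kb, was that of the gene, by the GRCm38 protein-coding annotation. The 5 genes held 86 entries of the lists, which merged into 49 distinct regions where they overlapped, out of 52537 distinct regions in all. Bhlhe40 had 12 regions, Gata3 and Nfil3 11 each, Epas1 9 and Maf 6. The farthest region inside the limit lay 84.9 kb from Maf, and the nearest one beyond it 106.9 kb from Gata3.

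GATA3 is a zinc finger factor that instructs the Th2 fate and opens the type 2 cytokine genes, and regulatory T (Treg) cells of tissues also use it. c-MAF, encoded by Maf, is a leucine zipper factor that activates Il4 and Il10. NFIL3 is a leucine zipper factor of the circadian and interleukin 10 programs, BHLHE40 a helix-loop-helix repressor that restrains Il10 and favours inflammatory cytokines, and EPAS1 (HIF-2alpha) an oxygen-regulated factor that binds DNA with ARNT. Genes of this kind are controlled by promoters and by distant enhancers, and both become accessible to transposase when they are in use.

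Accessibility was measured by ATAC-seq, in which transposase cuts open DNA. The 4 populations were sorted at day 15 from mice that received house dust mite extract through the nose for sensitization and challenge, a model of allergic asthma. The day is that of the titles and the protocol; the descriptions of the other effector and naive samples give day 10, and if those hold, day and population cannot be told apart in comparisons of Th2 or Treg cells with either. The labels give no strain, age or genotype. Th2 cells (CD3+CD4+CD44+ST2+CD30L+), Treg cells (CD3+CD4+CD25hiCD30L-) and other effector cells (memory cells other than Th2, sorted as CD3+CD4+CD44+ST2-CD30L+) came from lung with airways, and naive cells (CD3+CD4+CD44lo among the sorted markers) from a lymph node (labelled mLN). All 4 came from treated mice, so no population stands for an untreated animal, and population and organ cannot be told apart in any comparison with naive cells. Each population had 3 biological replicates of 1000 cells, but each list entry consists of coordinates and 1 log2 fold, so the folds below are the authors' own values and have no error or p-value here. Depth is unknown. In bulk samples, fewer cells with an open site and less opening per cell cannot be told apart.

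Folds are given as Th2 minus naive, Treg minus naive, other effector minus naive, Th2 minus Treg, Th2 minus other effector and Treg minus other effector, so that a positive value means more accessible in the population named first. The directions were read from sort marker genes, which are therefore no independent check, and not all of them went one way. Il1rl1, which encodes ST2, had 11 regions listed for Th2 over naive cells and 0 higher in naive cells, Foxp3 and Il2ra (CD25) had 3 each listed for Treg over Th2 cells, and Ccr7, a lymph node homing receptor, had 7 listed for naive over Th2 cells and 14 for naive over other effector cells. Cd44 had 8 regions for Th2 over naive and 1 for naive over Th2 cells, and Tnfsf8 (CD30L) 2 each. Against the gates, 3 regions of Cd44 and 4 of Tnfsf8 were listed for naive over other effector cells. Of genes of other cell types, 3 of 5 myeloid markers (Cebpa with 2 regions, Csf1r and Itgam with 1 each) were listed for Th2 over naive cells, Lyz2 and Spi1 had none there, and Itgam had 1 region for naive over Th2 cells. Over other effector cells, 18 of the 26 regions of these myeloid markers were listed for Th2 and 5 for Treg cells, against 53.2% and 46.7% of all regions. None of 5 B cell markers was listed for Th2 over naive cells, and Ebf1 and Pax5 had 4 and 1 for naive over Th2 cells. Of 4 CD8 and NK markers, Klrb1c had 1 for Th2 over naive cells, and Cd8b1 and Prf1 3 each for naive over Th2 cells. Of all regions, 9.67% were listed for Th2 over naive and 9.21% for naive over Th2 cells. For naive over other effector cells, 18 of 21 regions of the B cell markers were listed, against 33.7% of all regions. There, the CD8 and NK markers had 11 of 17 regions and the myeloid markers 11 of 26. The part of other cells in the results was not tested. Other effector cells were the less accessible population at all 17700, 28175 and 24765 entries of their lists against naive, Th2 and Treg cells, so a region listed there is listed in 1 direction only. What lies behind this was not tested. A further property of the tables bears on every fold. At entries with identical coordinates listed for Th2 cells over both naive and other effector cells, the 2 folds differed by exactly 0.17 or 0.18 at 3173 of 3896 regions (81.4%), and for Treg cells at 2403 of 2761 (87.0%). Of the merged regions of the 5 genes, 7 of 10 did so for Th2 cells, the others being Bhlhe40 regions 3 and 4 (-0.21 each) and 6 (0.20), and 6 of 8 for Treg cells, the others being Bhlhe40 region 6 (0.19) and Epas1 region 8 (0.37). At such regions the fold over naive and the fold over other effector cells give nearly the same number. Likewise, Th2 minus Treg and Th2 minus other effector folds differed by 0 or 0.01 at 2659 of 3543 regions (75.0%). Of the regions of the 5 genes with both folds, 6 of 7 did so, the exception being Nfil3 region 10 (-1.1). Folds of Th2 cells over several populations at 1 region are therefore not separate results.

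Sequences of the promoters are shown for Gata3 and Nfil3, the 2 of the 5 genes in the RefSeq promoter table, because both lay entirely within listed regions. Each runs from 250 bases before to 50 bases after the RefSeq start (GRCm38.p6, both on the minus strand), Gata3 at chr2:9878551-9878850 and Nfil3 at chr13:52980990-52981289. Capitals mark matches to the motifs searched.
Gata3: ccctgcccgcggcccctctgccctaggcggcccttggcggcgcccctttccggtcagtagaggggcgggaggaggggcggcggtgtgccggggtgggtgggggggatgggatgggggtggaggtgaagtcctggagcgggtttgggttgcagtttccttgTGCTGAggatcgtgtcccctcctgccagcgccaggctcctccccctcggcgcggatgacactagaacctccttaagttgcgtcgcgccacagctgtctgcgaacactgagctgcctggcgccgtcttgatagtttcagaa
Nfil3: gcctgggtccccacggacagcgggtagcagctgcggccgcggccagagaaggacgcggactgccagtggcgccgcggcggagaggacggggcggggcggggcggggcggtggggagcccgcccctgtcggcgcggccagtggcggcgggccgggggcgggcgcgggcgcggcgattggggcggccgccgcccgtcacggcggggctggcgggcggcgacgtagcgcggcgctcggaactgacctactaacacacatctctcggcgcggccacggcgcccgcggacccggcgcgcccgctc
Both windows lay wholly inside a region more accessible in Th2 than in other effector cells and in Treg than in other effector cells, which held for 14.0% of the 32851 promoters of the RefSeq table. Neither was inside a region that separated Th2 or Treg cells from naive cells or from each other. Both were rich in C and G: 67.3% of bases for Gata3 and 81.7% for Nfil3, above 86.2% and 99.4% of promoters, with 22 and 54 CpG dinucleotides against a median of 7. Of 8 motifs searched on both strands, the Gata3 window held the core of the MAF site, TGCTGA, once, 90 bases before the start, and 19.5% of promoters of the same length held it. The Nfil3 window held none. The other motifs were GATAA of GATA factors (in 25.4% of promoters), TGANTCA of AP-1 (7.81%), CACGTG, the E-box of Bhlhe40 (7.15%), ACGTG, the core of the HIF site, which is also part of that E-box (19.6%), TTACGTAA of Nfil3 and its relatives (0.119%), TGTGGTT of RUNX factors (5.27%) and TTCNNNGAA of STAT factors (8.30%), and neither window held them. A match is a string of letters and not a bound site.

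The 5 genes were divided in what their chromatin separated. Regions listed for Th2 over naive cells numbered 10 of 49 (20.4%, against 9.67% of all 52537 regions), 6 at Bhlhe40 and 2 each at Maf and Nfil3, and Gata3 and Epas1 had none. No region of the 5 genes was listed for naive over Th2 cells, a direction that held 9.21% of all regions. Treg cells exceeded naive cells at 8 regions (16.3%, against 6.64%), 2 at each gene other than Gata3, and naive cells exceeded Treg cells at 1 (2.04%, against 5.76%), at Epas1. Within 10 kb of the genes these counts were 1 and 1.

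Th2 cells exceeded Treg cells at 7 regions (14.3%, against 6.72% of all), 3 of them at Bhlhe40, 2 at Nfil3 and 1 each at Maf and Epas1. Of 5 myeloid markers, Csf1r and Cebpa had 1 region each listed for Th2 over Treg cells and none had one for Treg over Th2 cells; the part of myeloid cells was not tested. Treg cells exceeded Th2 cells at 2 regions (4.08%, against 3.34%), 1 each at Gata3 and Nfil3. Other effector cells had less access than Th2 cells at 29 regions (59.2%, against 53.2%) and than Treg cells at 25 (51.0%, against 46.7%), shares close to those of all regions. They had less access than naive cells at 4 regions (8.16%), whereas 33.7% of all regions were listed there. The 5 genes were proposed as Th2 factors with earlier results of these data known, so these shares are descriptions. Of the 49 regions, 26 (53.1%, against 68.5% of all regions) appeared only in lists with other effector cells, and 23 are left without those lists. Gata3 then keeps 1 region, Nfil3 6, Epas1 4, Maf 4 and Bhlhe40 8.

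**Figure D1:**
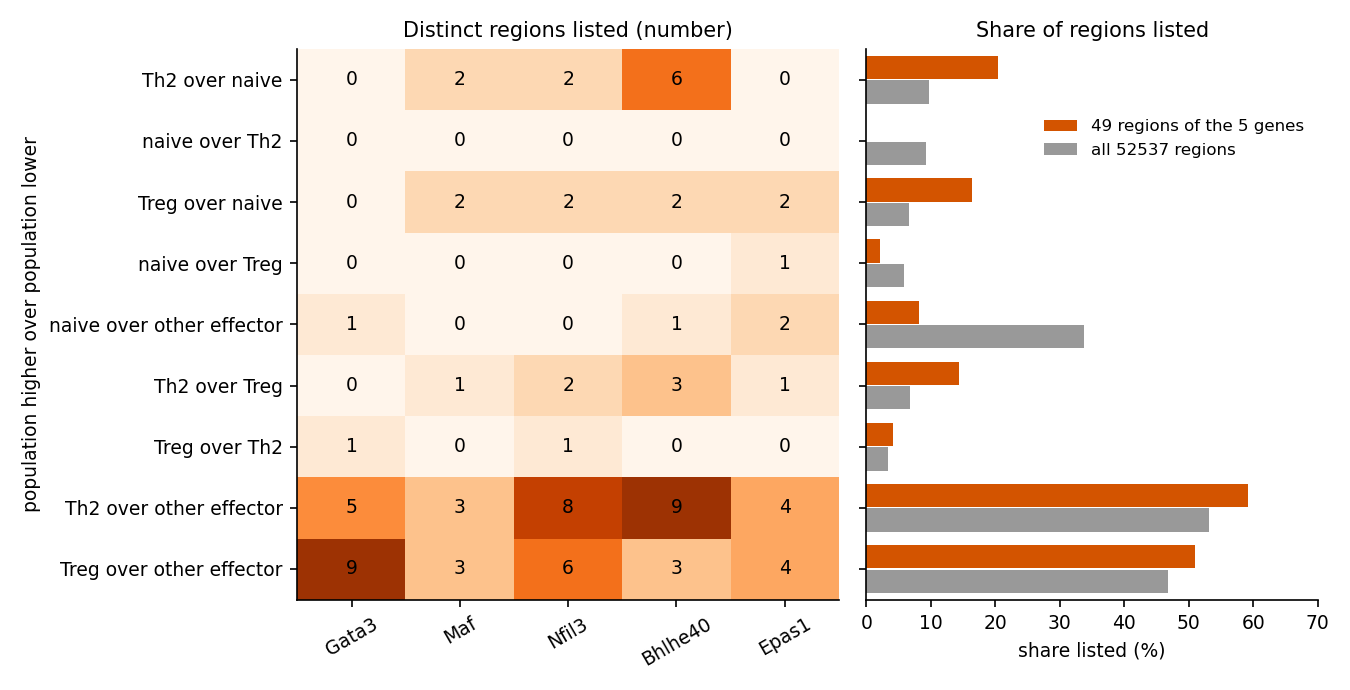
Left, number of distinct regions of each gene listed in each comparison and direction; right, share of the 49 regions of the 5 genes (orange) and of all 52537 regions (grey) listed there, in percent. Bhlhe40 has the most regions in the rows of Th2 over naive, Treg and other effector cells (6, 3 and 9), and Gata3 in the row of Treg over other effector cells (9).

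Gata3 lies on chromosome 2 at 9857078 to 9887953, with a gap of 2460.7 kb without coding genes to Celf2 on the lower-coordinate side and 26.6 kb to Taf3 on the other. Of its 11 regions, 8 lay inside the gene, 5 were listed for Th2 and 9 for Treg over other effector cells, and 4 of these were in both lists. These lists held 53.2% and 46.7% of all regions, and 22.8% were in both. Region numbers below run from low to high coordinate within a gene.

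The promoter region shown above, region 8 (9878340 to 9879025), had a log2 fold of 6.56 for Th2 minus other effector and 6.80 for Treg minus other effector cells by the authors' deposited tables. Region 9, only 129 bp further upstream (9879155 to 9879820), had the largest Gata3 folds, 7.31 in Th2 and 7.11 in Treg cells over other effector cells by the authors' deposited tables. Region 10 (9884168 to 9884539) had 6.54 and 6.02 in the same tables, and region 2 (9854199 to 9854348), 2805 bp beyond the lower end of the gene, 4.22 and 4.09. The Th2 and Treg values at these 4 regions lay within 0.52 of each other.

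One site separated Th2 from Treg cells: region 7, inside the gene at 9875945 to 9876210, had a Th2 minus Treg fold of -6.17 and a Treg minus other effector fold of 6.69 by the authors' deposited tables. It was more accessible in Treg cells and was listed for Th2 cells over no other population. Regions 3, 5, 6 and 11 were listed only for Treg over other effector cells, with log2 folds of 6.17, 4.48, 6.51 and 4.20 by the authors' deposited table, and region 4 only for Th2 over other effector cells, with 4.68. The remaining region, 55.4 kb below the gene, was lower in other effector than in naive cells, with a fold of -5.71 by the authors' deposited table. Of the regions assigned within 100 kb to Gata3, the gene that defines the Th2 lineage, none was listed as separating Th2 from naive cells in either direction. Regions nearer to another gene, such as Taf3, or inside one were not counted. Of all regions, 9.67% were listed for Th2 over naive and 9.21% for naive over Th2 cells. A count of 0 among 11 regions is near these shares. Beyond that limit, 12 of 44 regions with Gata3 as the nearest gene were more accessible in Th2 cells.

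Maf, on chromosome 8 at 115703253 to 115706894, is a short gene between gaps of 350.5 kb to Wwox and 798.1 kb to Dynlrb2. None of its 6 regions lay inside it. Of these, 3 were listed for Th2 and the other 3 for Treg cells over other effector cells, with 2 of each also over naive cells. The first 2 lists held 53.2% and 46.7% of all regions, and 22.8% were in both. The counts at Maf are near the first 2 shares. Only region 4 was listed in the direct comparison of Th2 with Treg cells. Regions 1 and 3, 84.9 kb below and 19.5 kb above the gene, had Treg minus naive folds of 6.61 and 5.84 and Treg minus other effector folds of 6.44 and 5.67 by the authors' deposited tables. Region 2 (115706906 to 115708524) next to the upper gene end had 8.29 for Treg minus other effector cells by the authors' deposited table, larger than 98.6% of that list, and appeared in no other.

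The 3 regions of Maf listed for Th2 cells lay 39.0 to 42.4 kb above the gene. Region 4 (115745730 to 115745967) was more accessible in Th2 than in every other population, with log2 folds of 4.63 over naive, 4.46 over Treg and 4.45 over other effector cells by the authors' deposited tables. Region 5 (115747828 to 115748439) had 4.92 over naive and 4.74 over other effector cells, and region 6 (115749073 to 115749512) 4.08 over other effector cells, in the same tables. All of these folds lay below the medians of their lists, which were 5.59, 5.50 and 5.40 for Th2 over naive, Treg and other effector cells.

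Nfil3, on chromosome 13 at 52967209 to 52982878 between Auh and Ror2, had 11 regions. Of these, 8 were listed for Th2 and 6 for Treg over other effector cells, against 53.2% and 46.7% of all regions. The broad promoter region 4 (52980365 to 52981540) had folds of 8.26 in Th2 and 7.27 in Treg cells over other effector cells by the authors' deposited tables, and the Th2 fold was larger than 98.6% of its list. Region 5, 212 bp further upstream (52981753 to 52981902), had 5.94 and 4.49 in the same tables.

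The upstream flank, 15.9 to 18.7 kb from the gene, held 3 regions, of which only region 8 was listed in the direct comparison of Th2 with Treg cells. Region 8 (53000411 to 53000929) was more accessible in Treg cells than in every other population, with Treg minus naive and Treg minus other effector folds of 6.91 and 6.73 and a Th2 minus Treg fold of -6.92 by the authors' deposited tables. Region 9 (53001247 to 53001822), 317 bp away, was listed for Th2 cells and not for Treg cells, with 4.87 over naive and 4.69 over other effector cells by the authors' deposited tables. Region 7 (52998579 to 52998968) was listed for both over other effector cells, with 5.59 in Th2 and 7.81 in Treg cells by the authors' deposited tables.

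Regions 1 and 10 of Nfil3, 4.6 kb below and 35.2 kb above the gene, separated Th2 from Treg cells, with Th2 minus Treg folds of 4.95 and 5.02 by the authors' deposited table; over other effector cells their Th2 folds were 4.95 and 6.12. Region 6 (52982717 to 52983092), across the upper end of the gene, had 4.93 for Th2 minus naive and 4.76 for Th2 minus other effector cells by the authors' deposited tables. Region 3, inside the gene, had 6.41 for Treg minus naive and 6.24 for Treg minus other effector cells in those tables. Region 2 was listed only for Th2 and region 11 only for Treg cells over other effector cells, with log2 folds of 5.0 and 6.15.

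Bhlhe40, on chromosome 6 at 108660629 to 108666925, was the one of the 5 genes with most sites listed for Th2 cells. Of its 12 regions, 9 were listed for Th2 over other effector cells, 6 for Th2 over naive and 3 for Th2 over Treg cells. The shares of all regions were 53.2%, 9.67% and 6.72%. Treg over other effector cells had 3 and Treg over naive cells 2, against 46.7% and 6.64% of all regions. None was listed for Treg over Th2 cells, a direction that held only 3.34% of all regions. Its sites lay mostly outside the gene, 8 of 12 at more than 10 kb from either end, 7 of these on the higher-coordinate side within 51.9 kb.

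Region 2 (108659266 to 108661104) covered the lower end of Bhlhe40 and, at 1839 bp, was the widest region of the 5 genes. It was more accessible in Th2 cells than in every other population, with log2 folds of 7.94 over naive, 7.77 over Treg and 7.77 over other effector cells by the authors' deposited tables. Its fold over Treg cells was the largest of the 5 genes and ranked 48 of 3541 in that direction. Region 4 (108667659 to 108668681), 1245 bp beyond the upper gene end, had the same pattern at a lower level, with 4.68, 4.89 and 4.89 in the same tables. Region 12 (108718503 to 108719188) separated Th2 from Treg cells too, with 6.55 over both Treg and other effector cells, and was not listed against naive cells.

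A further 3 sites of Bhlhe40, regions 3, 5 and 10, were listed for Th2 over naive and other effector cells only, with folds over naive cells of 5.67, 6.03 and 7.03 by the authors' deposited table. Region 6 (108688178 to 108688898), 21.6 kb above the gene, was shared: its folds were 7.55 in Th2 and 6.81 in Treg cells over naive cells, and 7.35 and 6.62 over other effector cells, by the authors' deposited tables. Regions 7 and 8 were listed only for Th2 over other effector cells (6.75 and 4.61), region 1 only for Treg over other effector cells (4.56) and region 9 for Treg over naive and other effector cells (5.88 and 5.71), as deposited by the authors. Region 11 was lower in other effector than in naive cells (-5.65 by the authors' deposited table) and ended 290 bp short of region 12, the Th2 site.

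Epas1, on chromosome 17 at 86753864 to 86833410 between Prkce and Tmem247, had a Th2 site at its lower end, 2 sites inside it more accessible in naive than in other effector cells, and 2 sites listed for Treg over naive cells beyond its upper end. Region 3 (86753076 to 86754219) covered the lower gene end and had a Th2 minus Treg fold of 7.35 and a Th2 minus other effector fold of 7.34 by the authors' deposited tables, the first larger than 96.6% of its list. It was not listed against naive cells. Region 4 (86754709 to 86755216), 489 bp further inside, was lower in other effector than in naive cells, with -5.95 by the authors' deposited table.

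Region 6 of Epas1 (86801366 to 86802447), in the middle of the gene, was more accessible in naive than in Treg and other effector cells. Its folds were -6.36 for Treg minus naive and -8.18 for other effector minus naive cells by the authors' deposited tables, the second larger in size than 96.2% of its list. A narrower entry inside it (86802034 to 86802183) had a Th2 minus other effector fold of 4.04. Regions 2 and 5 were listed only for Th2 over other effector cells, with 6.83 and 6.31 by the authors' deposited table.

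The sites listed for Treg over naive cells lay 17.5 and 19.2 kb beyond its upper end. Regions 7 and 8 there had Treg minus naive folds of 5.74 and 6.45 and Treg minus other effector folds of 5.57 and 6.08 by the authors' deposited tables. Regions 1 and 9, at 43.7 kb below and 39.5 kb above the gene, were listed only for Treg over other effector cells, with 6.42 and 4.54. No region of Epas1 was listed with both Th2 and Treg cells as the more accessible population, but there were only 9 of them. Of all regions, 22.8% were listed for both over other effector cells.

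**Figure D2:**
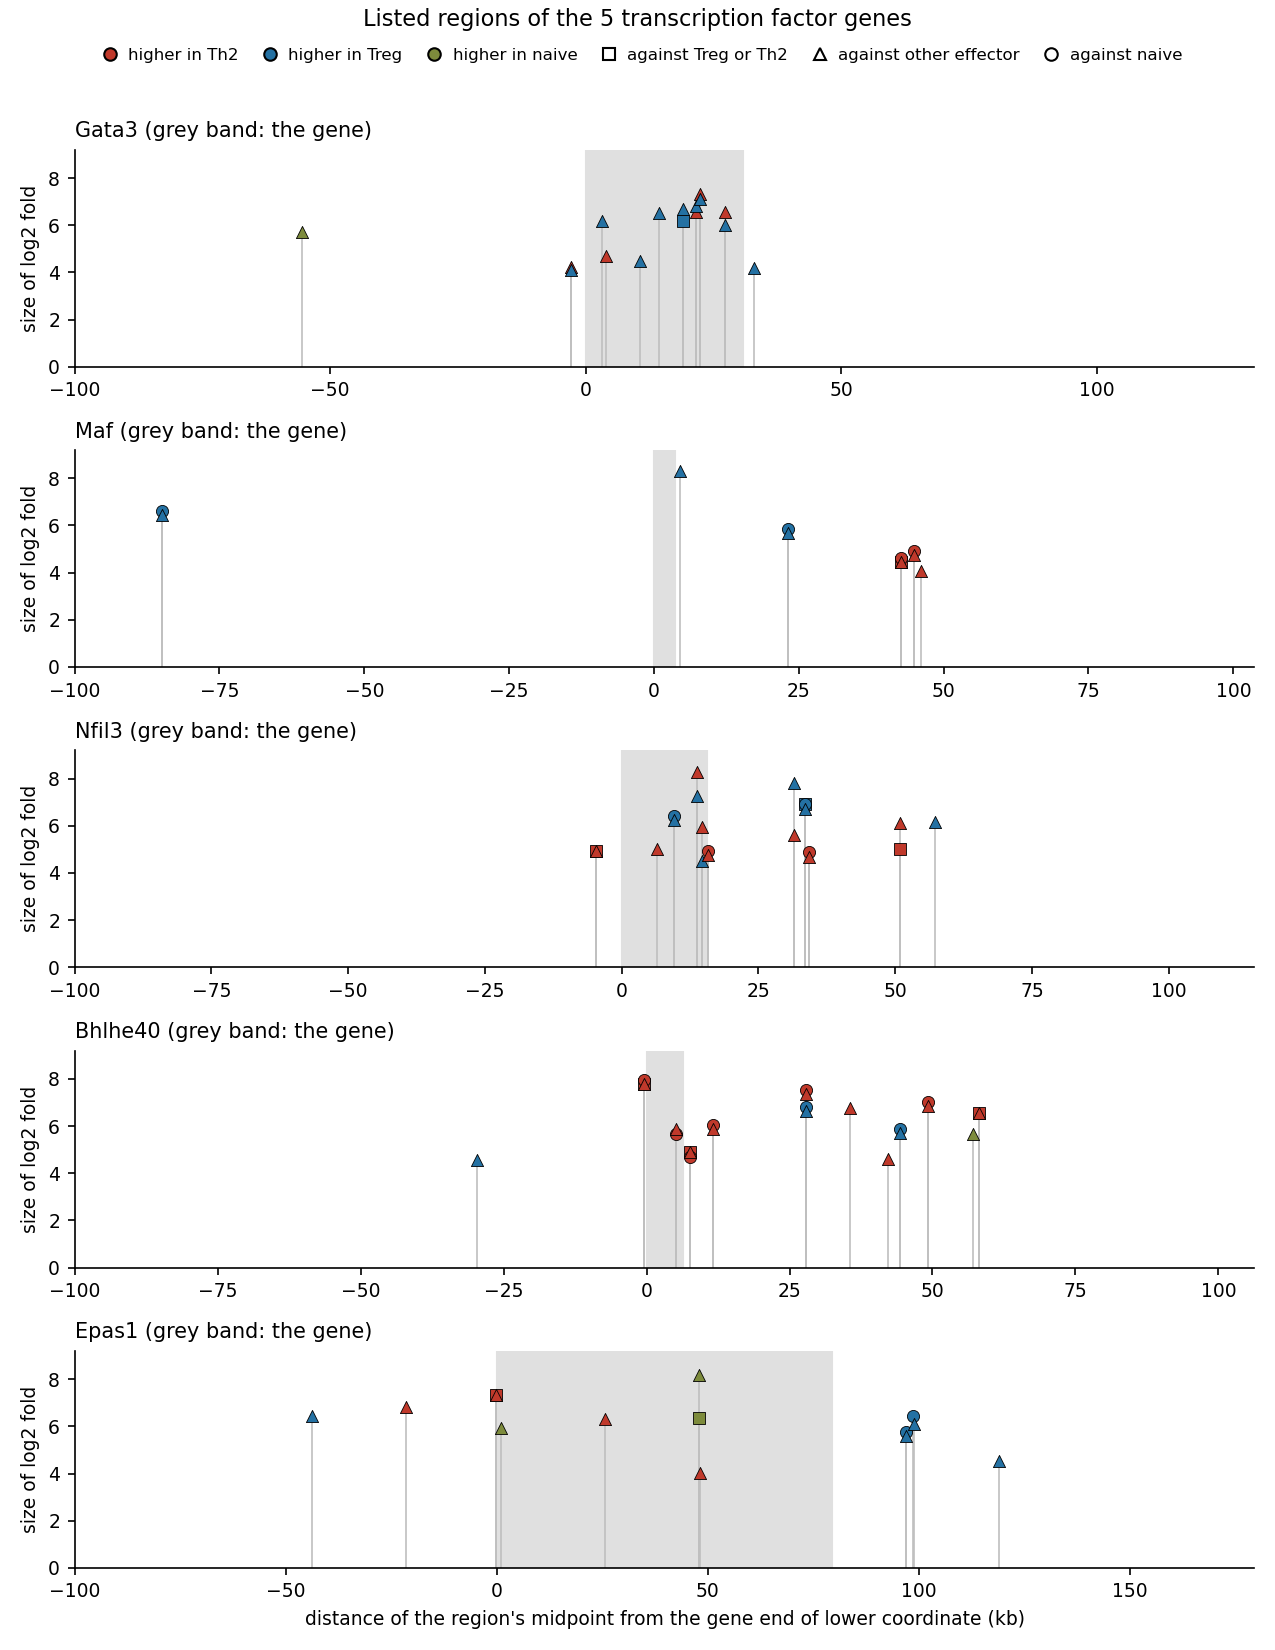
Size of each listed log2 fold (y axis) at the distance of the region's midpoint from the gene end of lower coordinate (x axis, kb), 1 panel per gene, with the gene as a grey band. Colour gives the more accessible and shape the less accessible population. The tallest marker of each panel reaches 7.31 for Gata3, 8.29 for Maf, 8.26 for Nfil3, 7.94 for Bhlhe40 and 8.18 for Epas1.

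Seen across the genes, 8 regions were listed for both Th2 and Treg over other effector cells, 4 at Gata3, 3 at Nfil3 and 1 at Bhlhe40, and none at Maf or Epas1 (16.3%, against 22.8% of all regions). These 2 comparisons share the other effector libraries, so the folds are set side by side only. The Th2 value was above the Treg value by 0.73 at Bhlhe40 region 6, and by 0.99 and 1.45 at Nfil3 regions 4 and 5. At Nfil3 region 7 the Th2 minus Treg gap was -2.22. Over all 11971 regions with both folds, the median size of this gap was 0.67, and it exceeded 1 at 32.3% of them.

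**Figure D3:**
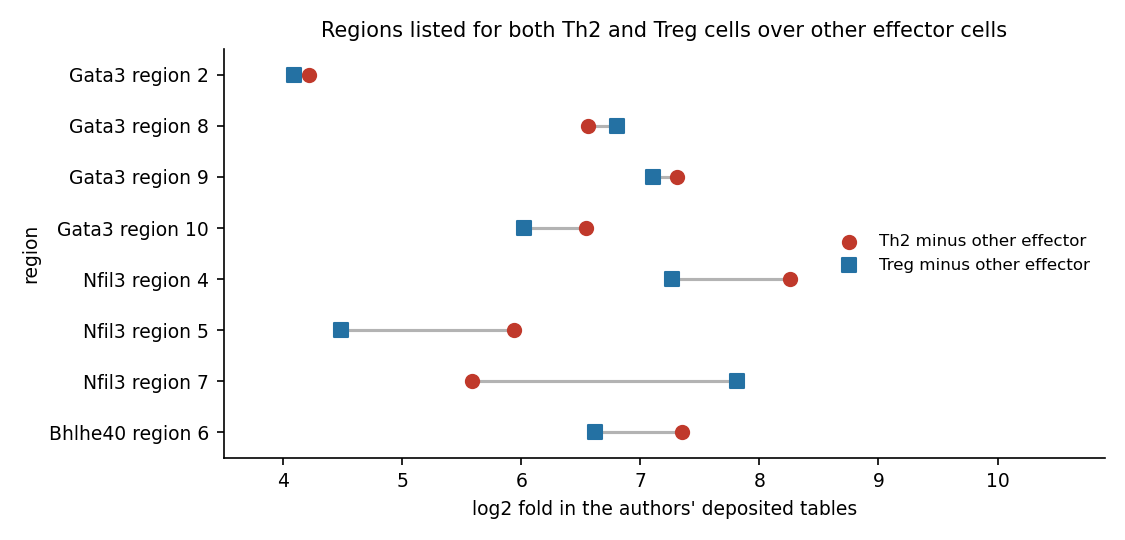
Log2 folds over other effector cells (x axis) in Th2 cells (red circles) and Treg cells (blue squares) at the 8 regions listed for both. The 4 Gata3 regions keep the 2 markers within 0.52 of each other, and Nfil3 region 7 is the farthest apart, with 5.59 in Th2 and 7.81 in Treg cells.

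Few sites were listed for 1 population over all 3 others. Th2 cells exceeded all 3 other populations at 3 of the 49 regions (6.12%, against 2.40% of all regions), Maf region 4 and Bhlhe40 regions 2 and 4. Treg cells did so at Nfil3 region 8 (2.04%, against 1.21%), and naive cells at 0 (against 2.71%). Th2 and Treg cells together exceeded naive and other effector cells at 1 region, Bhlhe40 region 6 (2.04%, against 2.58%).

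Fold sizes differed between populations. All 8 regions listed for Treg over naive cells exceeded the median of that list, 5.72, with a median of 6.43. Of the 10 listed for Th2 over naive cells, 5 exceeded the list's median of 5.59, all of them at Bhlhe40, and their median was 5.30. The 29 regions listed for Th2 over other effector cells had a median of 5.88 (list median 5.40), and the 25 higher in Treg cells one of 6.17 (list median 5.38).

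**Figure D4:**
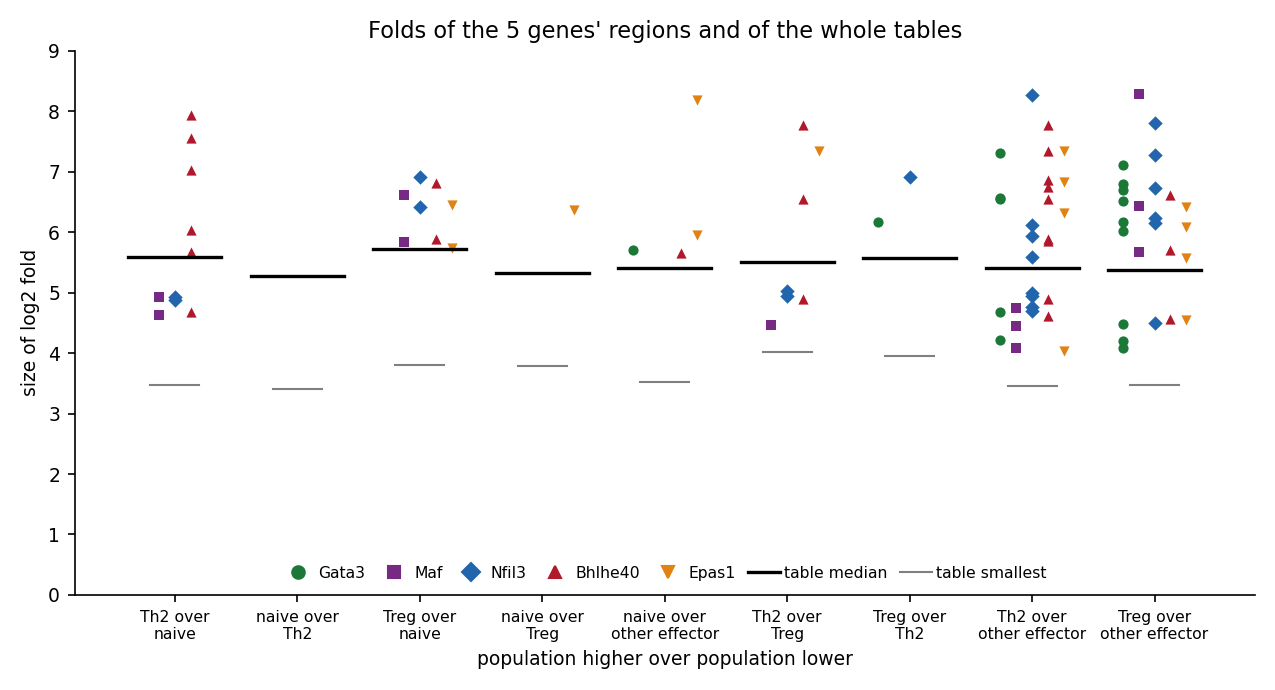
Size of the log2 fold of every entry of the 5 genes (symbols) in each comparison and direction, with the median (black line) and the smallest value (grey line) of the whole list. All symbols of Treg over naive cells lie above the list median of 5.72, and in Th2 over naive cells 5 of 10 symbols lie above 5.59.

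The regions lay farther from genes than most. Inside a gene were 16 of the 49 (32.7%, against 63.5% of the 49848 regions assigned to any gene), and 24 (49.0%, against 18.8%) lay outside and more than 10 kb from the gene end. Gata3 was the exception, with 8 of 11 inside. Only 4 midpoints were within 1 kb of a gene end (8.16%, against 22.6%), 1 each at Maf, Nfil3, Bhlhe40 and Epas1. Median width was 499 bp in both sets.

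Regions were dense at Nfil3, with 11.2 per 100 kb of the stretch the rule gives to the gene, and at Bhlhe40, with 10.1. These densities were above those of 95.8% and 94.3% of the 10264 genes whose stretch is 50 kb or longer, for which the median was 1.56. Gata3 had 7.64 (above 89.8%), Epas1 5.29 (81.4%) and Maf 2.96 (65.6%) per 100 kb.

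The genes with counts most like each member over the 9 comparison-and-direction classes were chosen by the smallest sum of absolute differences, given in parentheses. For Gata3 they were Scaf8 (1), Pde4a (2) and Gatad2a (3), for Maf Sh3bgrl, 4930503L19Rik and Aig1 (1 each), and for Nfil3 Mapkapk2 (3), S100a10 and Snx18 (4 each). For Epas1 they were Cry1, Pdia4 and Diaph1 (3 each). Bhlhe40 had the most distant neighbours, Igfbp7 (4), Specc1 and Cttnbp2nl (5 each).

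Other factors of the Th2 network were set beside the 5 genes. Of 22, 11 had a region listed for Th2 over naive cells and 8 one higher in naive cells, 10 one listed for Th2 over Treg cells and 9 one higher in Treg cells. Over all 21900 genes, the shares were 13.4%, 11.6%, 10.2% and 5.61%. These shares of genes are not a like measure, because the 22 genes held 341 regions and a gene with more regions is listed more easily. In the same order, 52, 38, 23 and 15 of the 341 were listed, against 9.67%, 9.21%, 6.72% and 3.34% of all regions. The genes with most regions were Rora, an orphan nuclear receptor (38, of which 6 higher in Th2 and 10 in Treg than in naive cells), Ets1, an ETS factor of lymphocytes (36, with 1 and 2), and Runx1, a core T cell factor (36, with 9 and 4, and 10 listed for Th2 over Treg cells). Stat6, which relays interleukin 4 signals upstream of Gata3, had 1 region, listed for both Th2 and Treg over other effector cells.

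Of 13 factors of other T helper fates, 10 had a region listed for naive over Th2 cells and 5 one higher in Th2 cells. The shares of all genes were 11.6% and 13.4%. Of their 207 regions, 57 were listed for naive over Th2 and 7 for Th2 over naive cells, against 9.21% and 9.67% of all regions. Bach2, a repressor of effector genes, had 67 regions (1 for Th2 over naive and 18 for naive over Th2 cells), Lef1 39 (0 and 19) and Runx3, a Th1 and CD8 factor, 20 (3 and 2).

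Family relatives had fewer regions per gene than the 5 genes, but 14 of 16 had a region, as did 13907 of all 21900 genes. Of 16, 4 had a region listed for Th2 over naive cells, against 13.4% of all genes. The 16 held 53 regions in all, 7 of them listed for Th2 over naive cells, against 9.67% of all regions. Bhlhe41, the closest relative of Bhlhe40, had 9 (1 higher in Th2 and 0 in naive cells), Hif1a, which encodes HIF-1alpha, 8 (2 and 1) and Hif3a 7 (0 and 0). Gata2 and Gata5 had none.

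Among 16 partners and inhibitors, 3 had a region listed for Th2 over naive cells and 5 one listed for Treg over naive cells, against 13.4% and 9.59% of all genes. Of their 64 regions, 3 and 10 were listed there, against 9.67% and 6.64% of all regions. Arntl, the clock activator that Bhlhe40 opposes, and Egln3, a prolyl hydroxylase that marks HIF proteins for decay, had 9 regions each, and Arnt2 and Cry1 8 each. Zfpm1 (FOG-1), which binds GATA factors, had 3, none listed against naive cells.

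Of 15 Th2 effector genes, 12 had a region listed for Th2 over naive cells and 0 one higher in naive cells, 4 one listed for Th2 over Treg cells and 0 one higher in Treg cells. Over all genes, the shares were 13.4%, 11.6%, 10.2% and 5.61%. Treg over naive cells was listed for 9 of the 15, against 9.59% of all genes. Of their 93 regions, 47 were listed for Th2 over naive, 29 for Treg over naive and 6 for Th2 over Treg cells. The shares of all regions were 9.67%, 6.64% and 6.72%. Il1rl1, itself the gene of the sort marker ST2, had 18 regions, Il10 11, and Igfbp7 and Cd200r1 9 each.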

How the data were processed

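ATAC-seq libraries of 4 T helper populations were compared in 6 tables of differentially accessible regions. The authors deposited 1 log2 fold per region, and the submitters' processing notes name DiffBind and build mm9. For aligner, peak caller, read shift, normalization, threshold and versions: not given in the sources used here. Depth and replicate spread are unknown. The build was checked: the tables name sequences of GRCm38 type, and 21.9% of regions lay within 1 kb of a GRCm38.p6 gene end, against 4.20% to 6.22% after shifts of 10 to 1000 kb. Coordinates are therefore given as GRCm38, 1-based. Each deposited log2 fold was read as first-named minus second-named population, from Il1rl1, Foxp3, Il2ra and Ccr7. Folds added up exactly (residual 0) at the 4 regions holding all 3 folds of a triple, none of them with the table of other effector and naive cells, whose direction rests on Ccr7 and the naming order while Cd44 and Tnfsf8 point the other way; the sign was turned where the text orders the pair the other way. The titles say day 15 for all samples whereas day 10 stands in the descriptions of the other effector and naive samples, and the protocol names the lymph node for naive cells where the source label names lung; title and protocol were followed.

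Regions were assigned and merged (1 base of overlap) with Python 3.11.15, pandas 2.3.3 and numpy 2.4.6, and the code was tested on simulated data. Where genes overlap, the shortest holds the region. All list genes matched the 21900 protein-coding genes of the RefSeq table, which gives no exons or UTRs. Promoters of 2 of the 5 genes were in the RefSeq sequence table. Without replicate values no test was possible; counts stand beside the share of all regions listed. Named are the 5 genes, the 3 genes most like each, the 3 with most regions of each list and marker genes; Stat6, Gata2, Gata5 and Zfpm1 were named after their values were seen. One sort marker is not reported here. Members and lists were chosen with earlier results of these data known. Alternatives changed the distance limit, the claim of neighbouring genes, the fold threshold, the overlap and the tables used.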

Additional observations from a re-analysis of the deposited data

How the results depend on the processing

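No paired analysis was possible because the tables hold no replicate values, and for the same reason no replicate could be left out. Counts of regions moved with the distance limit. With 10 kb in place of 100 kb, the 5 genes kept 5 of 10 regions listed for Th2 over naive cells, 1 of 8 listed for Treg over naive cells, with 1 of 1 for naive over Treg cells, 4 of 7 listed for Th2 over Treg cells, 1 of 2 listed for Treg over Th2 cells, 17 of 29 listed for Th2 and 13 of 25 listed for Treg over other effector cells, and 2 of 4 lower in other effector than in naive cells. With no distance limit, an alternative added after the data were seen, the counts were 23 listed for Th2 over naive cells and 4 higher in naive cells, 22 listed for Treg over naive cells, 60 and 54 higher in Th2 and in Treg than in other effector cells, and 14 lower in other effector than in naive cells. With every region within 100 kb counted, also those of neighbouring genes, there were 16 listed for Th2 over naive cells, 2 higher in naive than in Th2 and 2 listed for naive over Treg cells, 44 listed for Th2 over other effector cells and 10 lower in other effector than in naive cells. Regions at or above the median fold of their table numbered 5 for Th2 over naive, 3 for Th2 over Treg and 17 for Th2 over other effector cells. Without the tables of other effector cells 23 of the 49 distinct regions were left. These differences follow from how each alternative counts. The other 25 values for these counts stayed within 1.5 times. Depth is unknown, so what it limits could not be measured.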

Other observations

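The 100 kb limit leaves out most regions for which Gata3 is the nearest coding gene. In the gap without coding genes towards Celf2, 44 further regions had a Gata3 end as the nearest gene end, at 106.9 to 986.8 kb, and the rule assigns them to no gene. Of these 44, 12 were listed for Th2 over naive cells, 12 for Treg over naive cells and 7 for both, and 4 for naive over Th2 cells. Of all regions, 9.67% were listed for Th2 over naive, 6.64% for Treg over naive and 9.21% for naive over Th2 cells. The regions assigned to Gata3 within 100 kb had 0 in all of these classes, but there were only 11 of them. The 2 largest Th2 minus naive folds were 7.38 at 9577589 to 9578432 on chromosome 2, 279.1 kb from Gata3, and 7.19 at 9377839 to 9378649, 478.8 kb away, by the authors' deposited table. Their Treg minus naive folds were 7.27 and 6.64 by the authors' deposited table. None of the 44 was listed for Th2 over Treg cells, and 1, at 9683789 to 9684531, was lower, with a fold of -5.79. Of the 44, 10 were lower in other effector than in naive cells, against 33.7% of all regions. Between 165.1 and 179.8 kb from Gata3, a stretch chosen after its values were seen, this held for 5 of 6 regions. At 1 of them, 9677038 to 9677593, Th2 minus naive was -7.35 and other effector minus naive -7.17 by the authors' deposited tables. Which gene these regions act on was not measured, and they were looked at after the values within 100 kb were known.

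Maf had 9 such regions at 119.9 to 372.4 kb. One of them, at 116078965 to 116079629 on chromosome 8 and 372.4 kb from the gene, had folds of 4.76 for Th2 minus Treg and 4.76 for Th2 minus other effector cells by the authors' deposited tables. Another, at 115568348 to 115569073, was higher in both Th2 and Treg than in naive cells, with 4.86 and 4.66. Nfil3, Bhlhe40 and Epas1 had none.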
